A study of Mus musculus with 2 samples.

Results

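The genes described here are the REV-ERB receptor genes Nr1d1 and Nr1d2, the ROR receptor gene Rora, the PAR-bZIP activator genes Dbp, Tef and Hlf, the repressor gene Nfil3, and the DEC repressor genes Bhlhe40 and Bhlhe41. These 9 genes were chosen by name, as the output layer of the circadian clock, out of 34745 genes in the deposited table, and each was matched to 1 row. Each of the 9 had enough counts to be compared. RNA was sequenced from whole gastrocnemius muscle of 8-week-old C57BL/6 mice, with 1 library labelled CIPC-scko and 1 library labelled CIPC-flox/flox. The flox/flox muscle carries Cipc alleles flanked by loxP sites. By the title of the series, Cipc was deleted in satellite cells, the stem cells of muscle, and scKO was read as that genotype. The Cre driver, the number of animals behind each library and the time of day of sampling are not given in the sources used here. That title also speaks of mdx mice, a dystrophin-deficient strain, whereas no label of either library mentions mdx.

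Cipc encodes a protein that inhibits the CLOCK and BMAL1 activator pair. That pair switches on E-box genes, among them Nr1d1, Nr1d2, Dbp, Tef, Bhlhe40 and Bhlhe41. REV-ERB proteins repress, and ROR proteins activate, genes through a shared element called the RORE, and Nfil3 is one of the genes under that element. DBP, TEF and HLF activate genes through the D-box, where NFIL3 competes as a repressor. The DEC proteins repress E-box genes, so they act back on the clock. In skeletal muscle, REV-ERBα is known for its part in mitochondrial content and autophagy in mice.

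The libraries held 13842100 counts (scKO) and 14727219 counts (flox/flox), and mitochondrially encoded genes took 25.7% of the counts in each. Cipc had 111 counts in scKO and 658 in flox/flox, 5.70-fold lower in scKO. These counts are of whole muscle, so in which cells Cipc was lower was not measured. Muscle markers were abundant in both libraries, with 341106 and 369713 counts of the skeletal α-actin gene Acta1 in scKO and flox/flox. Satellite cell markers summed to 117 CPM in scKO, of which Itga7 made up 64.9, and 112 CPM in flox/flox, of which Itga7 made up 63.1. The sum thus mostly follows Itga7. Within that list Pax7 was lower in scKO, with 39 counts against 69 in flox/flox, and 9 of 10 intervals included 1. In whole muscle, fewer cells of a type and less RNA per cell cannot be told apart. With 1 library per genotype there is no replicate check and no p-value, and each difference below is between these libraries. Sampling time, animal and genotype cannot be told apart. Brackets give 95% intervals that cover counting error only.

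Clock output genes were mostly higher in the scKO library. Of the 9 genes, 8 had a log2 ratio of scKO over flox/flox above 0 and 1 below it. The interval of the ratio lay above 1 for 6 of them (Nr1d1, Nr1d2, Dbp, Tef, Bhlhe40 and Bhlhe41), against 12.8% of 12662 tested genes. It lay below 1 for Nfil3 alone, against 12.3% of tested genes, and included 1 for Rora and Hlf. Genes with many counts have narrow intervals. Among the 5005 genes with a summed count of at least 500, as each of the 9 had, 19.3% had intervals above 1 and 16.8% below. A difference of at least 1.5-fold with an interval that excludes 1 was reached upward by 1 of the 9 genes, Nr1d1, against 3.44% of tested genes. None of the 9 reached it downward, against 4.09%. Among the 5005 genes with a summed count of at least 500, these shares were 1.22% upward and 1.44% downward. No gene of the 9 was 2-fold apart, against 1.45% of tested genes upward and 1.88% downward. The median log2 ratio was 0.19 over the 9 genes and 0.0021 over all tested genes.

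**Figure D1:**
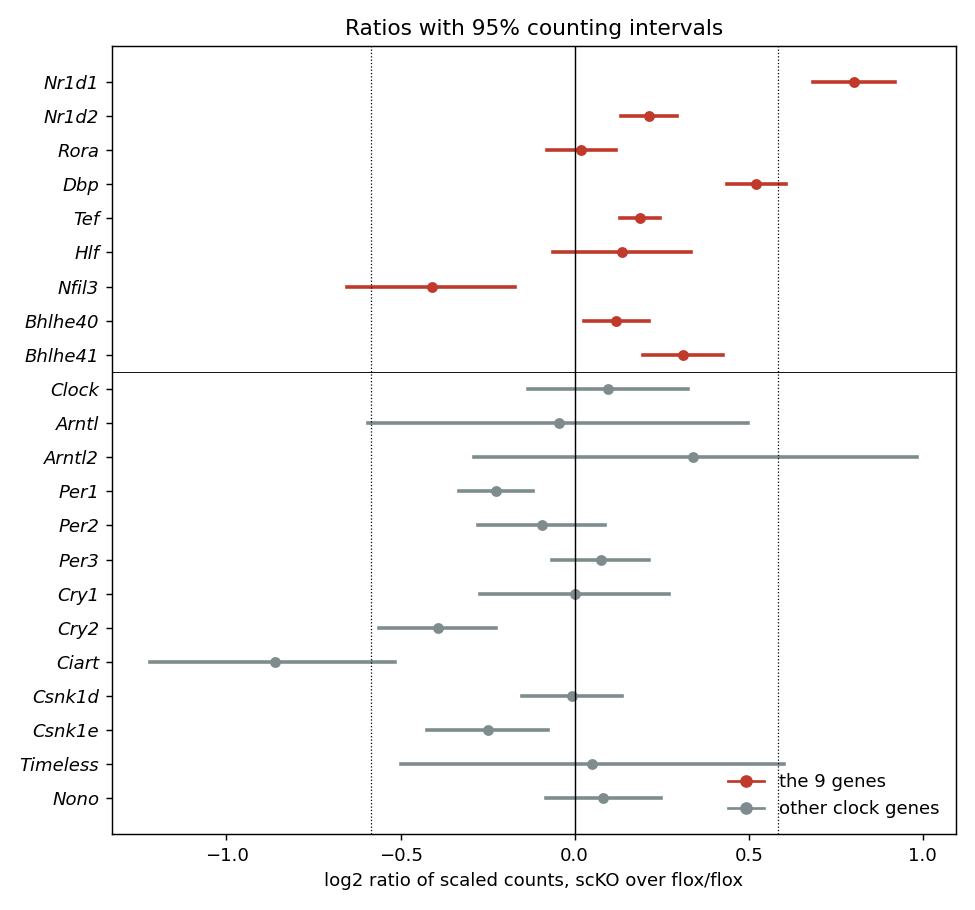
Log2 ratio of scaled counts, scKO over flox/flox, for the 9 genes (red) and tested clock genes outside them that the text names, without Cipc (grey), with 95% counting intervals as lines and 1.5-fold marked by dotted lines. Nr1d1, at 0.80, is the single gene of the 9 past the 1.5-fold line, and the interval of Nfil3 lies wholly below 0.

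Nr1d1, which encodes REV-ERBα, showed the widest gap of the 9. It lies on chromosome 11 (GRCm38, 98767932 to 98775333, minus strand) and had 1599 counts in scKO and 950 in flox/flox. That is 116 CPM (110 to 121) in scKO and 64.5 CPM (60.5 to 68.7) in flox/flox, and these ranges do not overlap. The scaled count was 1.74-fold higher in scKO (1.61 to 1.89), a log2 ratio of 0.80 (0.69 to 0.92). Of the 5005 well-counted genes, 0.639% had a ratio as high or higher, Nr1d1 included. Its 3′ exons overlap those of Thra, the thyroid hormone receptor α gene on the opposite strand, over 263 bases, which is 8.55% of the exonic bases of Nr1d1. Thra had 835 counts in scKO and 863 in flox/flox (log2 ratio 0.0036, −0.14 to 0.14). Whether the counting used strand is not given, so reads of the shared bases cannot be assigned with certainty.

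Nr1d2 encodes REV-ERBβ, the paralog that overlaps in function with REV-ERBα. The gene lies on chromosome 14 (18204054 to 18239127, minus strand) and had 2703 counts in scKO and 2414 in flox/flox. Its scaled count was 1.16-fold higher in scKO (1.10 to 1.23), a smaller difference than that of Nr1d1. For each count of Nr1d2 there were 0.592 counts of Nr1d1 in scKO and 0.394 in flox/flox. This balance was 1.503 times higher in scKO (1.36 to 1.66), a value that does not depend on how the libraries are scaled. Together the REV-ERB genes took 311 CPM in scKO and 228 CPM in flox/flox.

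Rora encodes RORα, the activator at the same element. It spans chromosome 9 from 68653786 to 69388246 on the plus strand and had 1619 counts in scKO and 1655 in flox/flox. The log2 ratio was 0.019 (−0.080 to 0.12), so a difference was not detectable at this depth. Repressor transcripts stood higher against this activator in the scKO library. Counts of Nr1d1 per count of Rora were 0.988 in scKO and 0.574 in flox/flox, 1.72 times higher in scKO (1.55 to 1.91). For Nr1d2 per Rora the values were 1.67 in scKO and 1.46 in flox/flox, 1.14 times higher (1.05 to 1.251).

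Dbp, whose protein is a D-box activator with a wide daily swing in many tissues, came second. It lies on chromosome 7 (45705088 to 45710203, plus strand) and had 2678 counts in scKO and 1933 in flox/flox. In CPM this was 193 (186 to 201) in scKO and 131 (125 to 137) in flox/flox, again without overlap. The scaled count was 1.44-fold higher in scKO (1.35 to 1.52), short of the 1.5-fold mark. Of the well-counted genes, 1.74% had a ratio as high or higher. Exons of Sphk2, a sphingosine kinase gene on the opposite strand, share 539 bases with Dbp, 18.0% of its exonic bases. Sphk2 had 72 counts in scKO and 123 in flox/flox, so its counts were few beside those of Dbp and differed in the other direction.

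Tef and Hlf encode the other PAR-bZIP activators. Tef (chromosome 15, 81802421 to 81826863, plus strand) was the most counted of the 9 genes, with 5074 counts in scKO and 4616 in flox/flox. It was 1.14-fold higher in scKO (1.09 to 1.19). Hlf (chromosome 11, 90336536 to 90390895, minus strand) had 436 counts in scKO and 411 in flox/flox. Its ratio of 1.10 had an interval of 0.958 to 1.26, which includes 1. The PAR-bZIP genes thus differed among themselves. Dbp per count of Tef was 0.528 in scKO and 0.419 in flox/flox, 1.26 times higher in scKO (1.17 to 1.35). Dbp per count of Hlf was 6.14 in scKO and 4.70 in flox/flox, 1.31 times higher (1.12 to 1.52).

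Nfil3 encodes the repressor that occupies the D-box in place of the PAR-bZIP proteins, and it went the other way. It lies on chromosome 13 (52967209 to 52981073, minus strand), had 246 counts in scKO and 339 in flox/flox, and has no exon shared with another annotated gene. In CPM the levels were 17.8 (15.6 to 20.1) in scKO and 23.0 (20.6 to 25.6) in flox/flox. The scaled count was 1.33-fold lower in scKO (1.13 to 1.57), and 3.18% of the well-counted genes had a ratio as low or lower. Each activator therefore stood higher against Nfil3 in the scKO library. Counts of Dbp per count of Nfil3 were 10.9 in scKO and 5.70 in flox/flox, 1.91 times higher in scKO (1.598 to 2.28). For Tef the balance was 20.6 in scKO and 13.6 in flox/flox, 1.51 times higher (1.28 to 1.801). For Hlf it was 1.77 in scKO and 1.21 in flox/flox, 1.46 times higher (1.18 to 1.82).

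Bhlhe40 and Bhlhe41 encode DEC1 and DEC2, repressors of E-box genes that respond to many stimuli besides the clock. Bhlhe40 (chromosome 6, 108660629 to 108666925, plus strand) had 1867 counts in scKO and 1780 in flox/flox. It was 1.09-fold higher in scKO (1.02 to 1.16). Bhlhe41 (chromosome 6, 145858243 to 145865558, minus strand) had 1348 counts in scKO and 1126 in flox/flox. It was 1.24-fold higher in scKO (1.15 to 1.34), next after Nr1d1 and Dbp among the 9. The count of Bhlhe40 per count of Bhlhe41 was 1.39 in scKO and 1.58 in flox/flox, lower in scKO by a factor of 0.876 (0.790 to 0.972). The DEC pair took 232 CPM in scKO and 197 CPM in flox/flox. Besides Nr1d1 and Dbp, Rora, Tef, Bhlhe40 and Bhlhe41 also share exonic bases with a gene on the opposite strand, but those partners had at most 4 counts in either library.

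**Figure D2:**
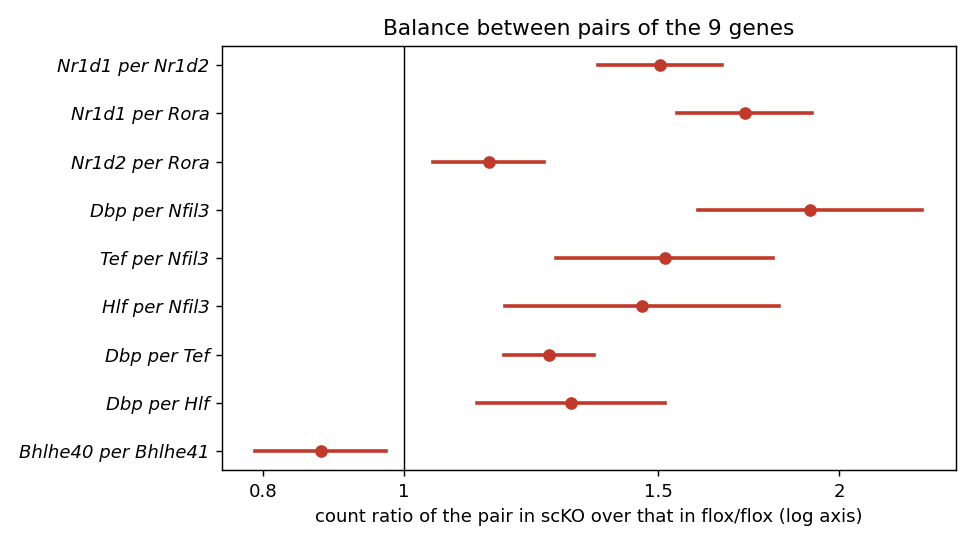
Counts of the first gene per count of the second in scKO, divided by the same in flox/flox (log axis), for 9 pairs of these genes, with exact conditional 95% intervals as lines. The intervals of 8 pairs lie above 1, with Dbp per Nfil3 the highest at 1.91, and that of Bhlhe40 per Bhlhe41 lies below 1. Pairs share genes and restate the ratios of single genes, so their values are not independent.

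Levels between genes were compared per length, and their order depended on which length was used. For 7 of the 9 genes the length behind the deposited FPKM was within 1% of the sum of distinct exons in GENCODE M21, which counts shared bases more than once. That length was 1.73 times the merged exons for Hlf, 1.69 times for Tef, 1.68 times for Dbp and 1.36 times for Bhlhe40. The levels are therefore given both as deposited FPKM and as CPM per kilobase of merged exons. Dbp was the highest of the 9 in scKO on either scale, at 38.4 FPKM (37.0 to 39.9) and 64.6 CPM per kilobase. In flox/flox Dbp stood at 26.1 FPKM (24.9 to 27.3), behind Nr1d2 at 28.1 FPKM with overlapping intervals, but it came first at 43.9 CPM per kilobase.

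Tef and Nr1d2 moved in opposite directions between the scales. In scKO Tef ranked 4 at 27.5 FPKM and 2 at 46.6 CPM per kilobase, and in flox/flox it ranked 3 at 23.5 FPKM and 2 at 39.8 CPM per kilobase. By FPKM Nr1d2 ranked 2 in scKO and 1 in flox/flox, and on the merged scale 4 and 3. The REV-ERB genes lay close together in scKO, with Nr1d1 at 33.0 FPKM and 37.5 CPM per kilobase and Nr1d2 at 33.4 FPKM and 36.1 CPM per kilobase, and their intervals overlap on each scale. In flox/flox they were apart, with Nr1d1 at 18.4 FPKM and 20.96 CPM per kilobase and Nr1d2 at 28.1 FPKM and 30.3 CPM per kilobase. Nr1d1 ranked 3 of 9 in scKO on the merged scale and 5 of 9 in flox/flox on either scale. Its rank by FPKM in scKO was also 3.

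Bhlhe40 stood at 21.1 FPKM in scKO and 18.9 FPKM in flox/flox, and Bhlhe41 at 13.4 and 10.5 FPKM. The lower ranks went to Nfil3, Rora and Hlf, with Hlf last on either scale in both libraries at 2.72 FPKM in scKO and 2.41 FPKM in flox/flox. In scKO Nfil3 at 8.77 FPKM and Rora at 7.86 FPKM had overlapping intervals, and on the merged scale Rora at 8.95 passed Nfil3 at 8.77 CPM per kilobase, again with overlap. In flox/flox Nfil3 at 11.4 FPKM overlapped Bhlhe41 on each scale and stood above Rora at 7.55 FPKM. The length cancels in the ratio between libraries, so the ratios above do not depend on it.

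**Figure D3:**
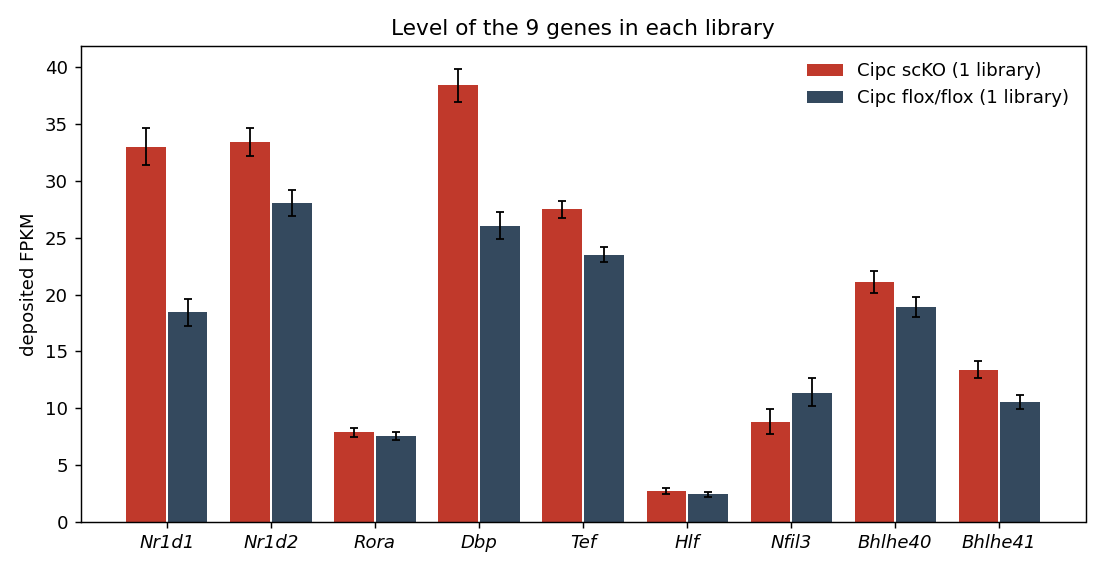
Deposited FPKM of each of the 9 genes in the scKO library (red) and the flox/flox library (dark), 1 library each, with 95% counting intervals; heights of different genes depend on the gene length behind FPKM. Dbp reaches 38.4 FPKM in scKO and 26.1 in flox/flox, Nr1d1 33.0 and 18.4, while Nfil3 is the gene with the lower bar in scKO, 8.77 against 11.4.

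Seen against all tested genes, the 9 lay in the upper range of counts, where ratios spread little. The quartiles of the log2 ratio were −0.18 and 0.17 over all tested genes, and −0.097 and 0.12 over the well-counted ones. The log2 ratios of Nr1d1 (0.80), Dbp (0.52), Bhlhe41 (0.31), Nr1d2 (0.21) and Tef (0.19) lay above the upper quartile of the well-counted genes. Hlf (0.14), whose interval includes 0, lay just above it too. The log2 ratio of Nfil3 (−0.41) lay below the lower quartile. Those of Bhlhe40 (0.12) and Rora (0.019) were within the quartiles, Bhlhe40 just below the upper one. How much these genes differ between animals of 1 genotype was not measured.

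**Figure D4:**
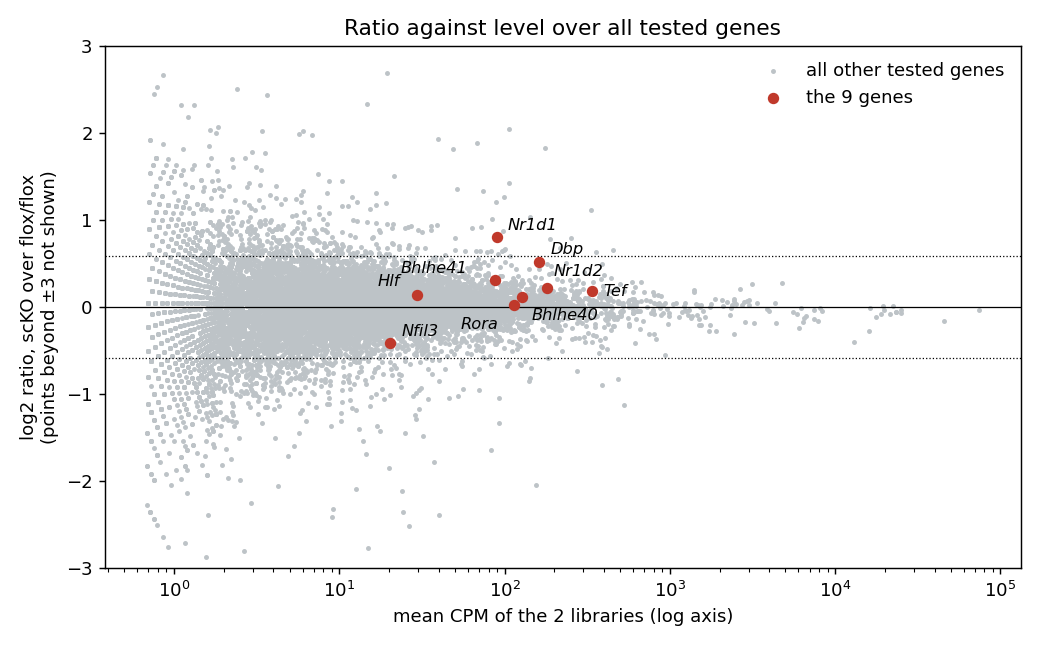
Log2 ratio of scKO over flox/flox against the mean CPM of the libraries (log axis) for 12662 tested genes (grey) and the 9 clock output genes (red), with dotted lines at 1.5-fold; 30 genes beyond 3 on the log2 axis are not shown. Nr1d1 (0.80) and Dbp (0.52) sit above most genes of like level, Nfil3 (−0.41) below most, and the other 6 nearer to 0.

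Promoter windows of RefSeq (GRCm38.p6), 250 bases before and 50 after a RefSeq start, were found for 8 of the 9 genes, with a pair of windows for Tef. They were searched on both strands for the E-box CACGTG, the E-box variant CACGTT, the D-boxes TTATGTAA, TTACGTAA and TTATATAA, the RORE cores TAGGTCA and TGGGTCA, and the CRE TGACGTCA. CACGTG occurred in the windows of 2 of the genes, Tef (in each of its windows) and Bhlhe41, against 7.15% of 32851 windows. CACGTT occurred for Nr1d1 (4.68% of windows), a RORE core for Nfil3 (6.45%) and the CRE for Hlf (1.79%). A D-box was found for none of the 8 (1.59% of windows). Nr1d2, Rora and Dbp had no match to any of these letters in their windows. Bases outside the windows were not searched, so the lack of a match does not mean that a gene lacks such an element. The 4 windows below are those of the genes with the widest ratios, Nr1d1, Dbp, Nfil3 and Bhlhe41, in lower case with each match in capitals, 5′ to 3′ on the strand of the gene. They lie at chr11:98775328-98775627 (minus), chr7:45704997-45705296 (plus), chr13:52980990-52981289 (minus) and chr6:145865371-145865670 (minus).
Nr1d1: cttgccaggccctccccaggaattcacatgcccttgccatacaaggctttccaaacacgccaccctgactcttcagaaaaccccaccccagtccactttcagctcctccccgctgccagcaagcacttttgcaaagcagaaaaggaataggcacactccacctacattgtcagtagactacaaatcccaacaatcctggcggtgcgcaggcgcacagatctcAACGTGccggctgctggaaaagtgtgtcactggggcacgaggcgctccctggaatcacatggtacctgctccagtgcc
Dbp: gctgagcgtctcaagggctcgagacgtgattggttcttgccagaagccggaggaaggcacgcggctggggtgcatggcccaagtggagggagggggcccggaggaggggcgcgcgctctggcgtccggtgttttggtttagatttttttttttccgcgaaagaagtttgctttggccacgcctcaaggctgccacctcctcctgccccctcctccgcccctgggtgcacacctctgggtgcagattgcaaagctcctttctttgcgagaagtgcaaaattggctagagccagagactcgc
Nfil3: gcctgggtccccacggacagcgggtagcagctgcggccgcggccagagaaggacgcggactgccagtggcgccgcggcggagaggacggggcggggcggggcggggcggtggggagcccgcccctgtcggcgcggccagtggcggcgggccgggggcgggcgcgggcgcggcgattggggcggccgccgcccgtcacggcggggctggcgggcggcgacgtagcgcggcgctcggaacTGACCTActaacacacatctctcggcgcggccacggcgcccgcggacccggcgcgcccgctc
Bhlhe41: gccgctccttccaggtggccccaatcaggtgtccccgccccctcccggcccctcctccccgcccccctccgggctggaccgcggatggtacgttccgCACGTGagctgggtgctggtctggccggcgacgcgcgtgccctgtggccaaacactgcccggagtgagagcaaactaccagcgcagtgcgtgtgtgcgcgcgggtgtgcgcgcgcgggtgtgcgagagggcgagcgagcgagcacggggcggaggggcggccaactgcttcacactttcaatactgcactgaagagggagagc
The capitals in Nr1d1 are CACGTT read on the opposite strand, 28 to 23 bases before the start. Those in Nfil3 are TAGGTCA on the opposite strand, 12 to 6 bases before the start, and those in Bhlhe41 are the E-box, 153 to 148 bases before it. The window of Nfil3 holds 81.7% G and C, that of Bhlhe41 70.7%, that of Dbp 60.3% and that of Nr1d1 56.3%. A match describes the letters of the window and was not tested for binding.

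In the rest of the clock, without the deleted gene Cipc, 15 of 18 listed genes were tested. None had an interval above 1, against 12.8% of tested genes, and 4 had one below it (Per1, Cry2, Ciart and Csnk1e), 26.7% against 12.3%. The median log2 ratio was −0.0074. The intervals of Arntl, which encodes BMAL1 and is repressed by REV-ERB, of Clock and of Cry1 included 1. In the RORE list, 0 of 4 tested genes had an interval that excludes 1. Arntl had 57 counts in scKO and 61 in flox/flox, too few to detect a small difference. The period gene Per1, an E-box and D-box gene, was lower in scKO with 1324 counts against 1605 in flox/flox (log2 ratio −0.23, −0.33 to −0.12). Per2 (−0.095) and Per3 (0.075) had intervals that include 0. Ciart, a repressor of the CLOCK and BMAL1 pair, had 105 counts in scKO and 198 in flox/flox, 1.82-fold lower in scKO. Cry2, a cryptochrome gene, stood at −0.39 and the casein kinase gene Csnk1e at −0.25. Arntl2, Csnk1d, Timeless and Nono had intervals that include 0. Nr1d1 and Dbp, higher in scKO, and Per1 and Ciart, lower in scKO, are all known as E-box genes. A list of 7 E-box outputs was drawn up without the 9 genes. In it, 3 intervals lay below 1, those of Per1, Cry2 and Ciart again, and none above. Wee1 (0.38) and Usp2 (0.058) were among those with intervals that include 1. Nr1d1, Nr1d2, Dbp, Tef, Bhlhe40 and Bhlhe41, E-box genes with intervals above 1, are outside that list by choice. Its count therefore does not describe E-box genes as a whole. Whether the ratios of the 9 genes differ from those of the other clock genes was not tested.

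Of the 28 tested genes that act with REV-ERB, handle haem or lie under the D-box, 1 was past 1.5-fold downward (3.57%) and none upward, which is near the 4.09% and 3.44% of all tested genes. In the REV-ERB corepressor complex 3 of 6 genes had intervals above 1, against 12.8% of tested genes. Of these, the deacetylase gene Hdac3 was 1.31-fold higher in scKO (760 counts in scKO, 603 in flox/flox). Tbl1xr1 (0.32) and Gps2 (0.22) were the others on the log2 scale, while Ncor1 (−0.098), whose protein docks on REV-ERB, had an interval that includes 0. Of 5 genes that set REV-ERB stability, Gsk3b alone had an interval that excludes 1, at a log2 ratio of −0.19 (931 counts in scKO, 1102 in flox/flox). Mycbp2 (−0.14), Siah2 (0.11) and Fbxw7 (0.068) had intervals that include 0. The haem genes matter here because haem is the ligand of REV-ERB. In that list 10 of 12 intervals included 1, with Alas1, the first enzyme of haem synthesis, at −0.068 and Ppox at −0.24. Hmox2, a haem oxygenase, was higher in scKO (430 counts in scKO, 317 in flox/flox) and the biliverdin reductase gene Blvrb lower (49 counts in scKO, 119 in flox/flox), the gene past 1.5-fold. Of the D-box list, 1 of 6 tested genes had an interval above 1, the P450 reductase gene Por at 0.27, and 1 below, Per1. Pdxk, a pyridoxal kinase gene, stood at 0.26 with an interval that includes 0.

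Of 8 genes of the LKB1 and autophagy axis that REV-ERBα is known to act on in mouse muscle, 2 had intervals above 1 and 4 below. The shares of all tested genes were 12.8% above and 12.3% below. Stk11, which encodes LKB1, had 828 counts in scKO and 1167 in flox/flox (log2 ratio −0.44). Ulk1 stood at −0.20 and Becn1 at −0.19, while Ppargc1a stood at 0.17 and Bnip3 at 0.15. None of the 8 reached 1.5-fold. For the DEC genes, which hypoxia can induce, 5 of 10 hypoxia genes had intervals above 1 and none below. Over all tested genes the share above 1 was 12.8%, and over the well-counted ones 19.3%. Egln3 stood at 0.23 and Hk2 at 0.18, and none of the 10 was past 1.5-fold. Ankrd37 (0.54), Adm (−0.39) and Slc2a1 (−0.21) rested on few counts and had intervals that include 0. Of 4 tested hairy-type relatives of the DEC proteins, Hes1 was 1.66-fold lower in scKO (144 counts in scKO, 248 in flox/flox), and the intervals of Hes6, Hey1 and Heyl included 1.

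Markers of other cells also differed between the libraries. Over all tested genes, 12.8% had intervals above 1 and 12.3% below. Endothelial markers summed to 491 CPM in scKO and 414 CPM in flox/flox, with 4 of 10 intervals above 1 and none below. Fibro-adipogenic progenitor markers summed to 948 CPM in scKO and 1066 CPM in flox/flox, with 6 of 10 intervals below 1. Erythroid genes summed to 113 CPM in scKO and 144 CPM in flox/flox, with 5 of 5 below 1. Fabp4, which is in both the endothelial and the adipocyte list, had 181 CPM in scKO and 150 CPM in flox/flox. Without it, the endothelial markers summed to 309.7 CPM in scKO and 264 CPM in flox/flox, and the adipocyte markers to 33.7 CPM in scKO and 30.4 CPM in flox/flox, with 0 of 7 adipocyte intervals excluding 1. Ucp1, which defines brown fat, was at 0 in both. Of 3 tested genes in the brown adipocyte list, 2 had intervals above 1, Cox8b at a log2 ratio of 0.30 and Ppargc1a at 0.17. The other, Cidea, had 12 counts in scKO and 17 in flox/flox, with an interval that includes 1. Ppargc1a is also in the muscle list of the LKB1 axis, and without Ucp1 these counts cannot be assigned to brown fat. In the satellite cell list the median log2 ratio was 0.089, and 9 of 10 intervals included 1. Pax7 was the exception, with 39 counts in scKO and 69 in flox/flox, 1.70-fold lower in scKO and so past the 1.5-fold mark. Macrophage markers summed to 79.9 CPM in scKO and 83.9 CPM in flox/flox, with 1 interval above 1 and 2 below. Smooth muscle and pericyte markers summed to 462 CPM in scKO, of which Rgs5 made up 325, and 448 CPM in flox/flox, with 1 of 8 intervals above 1 and 2 below. Those below were Cnn1 (4 counts in scKO, 18 in flox/flox) and Higd1b (15 and 30). Schwann cell markers summed to 76.1 CPM in scKO and 80.9 CPM in flox/flox, with 2 of 5 intervals below 1, those of Sox10 (9 counts in scKO, 27 in flox/flox) and Pmp22 (441 and 534). Of the 11 skeletal muscle markers, 8 had intervals below 1 and 2 above, with a median log2 ratio of −0.065. None was past 1.5-fold. Each had many counts and a narrow interval, so small ratios are among these, such as Myh2 at −0.021 and Atp2a1 at 0.017. The part of these cell types in the ratios of the clock output genes was not tested.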

How the data were processed

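RNA of gastrocnemius muscle was sequenced in 1 Cipc scKO and 1 Cipc flox/flox library. The authors deposited whole-number counts per Ensembl gene and, per the file headers, FPKM values for each library. CASAVA, HISAT2 2.0.4, StringTie 1.3.0 and the build GRCm38 are named in the submitters' processing notes, without a role or order. The annotation, counting options and strand setting are not given in the sources used here. The gene length implied by FPKM, count and total differed between the libraries by at most 0.0198%, so the deposited FPKM values add nothing to the counts except a length. That length was up to 1.73 times the merged exons for the 9 genes. The library kit was VAHTS Universal V6, per the labels' protocols.

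Symbols were found for 34267 of 34745 identifiers, and positions came from GENCODE M21 (GRCm38). Counts were scaled by TMM in edgeR 4.0.16 (R 4.3.3). Log2 ratios used a prior count of 0.5, with an exact conditional binomial (Clopper-Pearson) 95% interval. Genes with a summed count of at least 20 were compared and are called tested, although no p-value was computed. CPM used the total count, with exact Poisson intervals, and 1 count was 0.0722 CPM in scKO and 0.0679 CPM in flox/flox. The ratio of 2 genes was compared between libraries as an odds ratio with its exact conditional interval. All intervals cover counting error only, and PCR copies and differences between animals are outside them. The procedure was tested on simulated data with known fold changes. The simulated counts held counting error alone, so differences between animals were outside that test.

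The 9 genes, the 11 pathway lists, the 10 cell marker lists and the fold mark were chosen with earlier results of these data known, so no count over them is independent evidence. The text names the 9 genes, genes that share their exons, Cipc, clock genes, and up to 4 genes of each pathway list with the widest ratios. Other list members and the cell markers were named after their values were seen. Some list members are counted but not reported here by name. A planned comparison of protein sequences was not made. Python 3.11.15, scipy 1.17.1 and matplotlib 3.10.9 were used.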

Additional observations from a re-analysis of the deposited data

How the results depend on the processing

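The direction of the ratio of each of the 9 genes was the same under total-count scaling, DESeq2 size factors, TMM without mitochondrially encoded genes, a prior count of 5 and log2 ratios of FPKM + 1. Over the scalings and prior counts the log2 ratio ranged from 0.79 to 0.84 for Nr1d1, from 0.51 to 0.56 for Dbp and from −0.42 to −0.37 for Nfil3. Each value stayed within the counting interval of its gene. The numbers of genes with intervals above 1 (6) and below 1 (1) were the same under each scaling and under count minimums of 100 and of none. With a 2-fold mark in place of 1.5-fold, the number of the 9 genes past it upward was 0, against 1.45% of tested genes. Downward it was 0 under each setting. No paired analysis was possible because there is 1 library per genotype, and for the same reason no library could be left out. Depth limits the low genes: for Hlf, with 436 counts in scKO and 411 in flox/flox, the interval of the fold reached 1.26. Per kilobase of merged exons in place of the FPKM length, a setting chosen after seeing the data, 16 of the 18 levels of single genes (9 genes in each library) moved beyond their counting interval, and those of Dbp, Tef and Hlf by over 1.5 times; ratios between libraries do not change.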

Other observations

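Glucocorticoid-induced genes, several of which also cycle over the day, stood higher in the scKO library as a list, with 4 of 11 at least 1.5-fold higher and 8 of 11 intervals above 1. Over all tested genes these shares were 3.44% and 12.8%, and 19.3% of well-counted genes had intervals above 1. The median log2 ratio was 0.47, against 0.0021 over all tested genes. Fkbp5, a co-chaperone of the glucocorticoid receptor, had 571 counts in scKO and 325 in flox/flox (log2 ratio 0.86, 0.67 to 1.07). Cebpd, a bZIP transcription factor gene, had 543 counts in scKO and 305 in flox/flox (0.88, 0.68 to 1.09). The metallothionein genes Mt1 (0.89) and Mt2 (0.72) were the others past 1.5-fold. Tsc22d3 (0.33), Sgk1 (0.31), Klf15 (0.47) and Ddit4 (0.49) had intervals above 0, Klf9 and Zbtb16 had intervals that include 0, and Per1 was the exception below 0. Part of this list was known to be higher in scKO when it was drawn up, so its count is not independent evidence, and no cause was tested.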
